A study of Mus musculus with 32 samples.

Results

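Mice labelled Pparg knockout and kept at room temperature were compared with Pparg knockdown cells in culture, over 16 of the 32 arrays of the series, chosen by their labels. The groups were 4 arrays of Pparg knockout mice and 4 of their controls, and 4 arrays of Pparg knockdown cells in culture and 4 of their controls. The quantity of interest was the effect in mice (knockout minus control) minus the effect in culture (knockdown minus control), for every gene, so that genes fall into those changed alike, those changed oppositely and those changed in a single system. The labels give C57Bl/6 as the strain and room temperature as the treatment of all 16 samples, the culture samples included, and call all of them preadipocytes. They name no age, no promoter or cell type in which the gene was deleted and no knockdown reagent, and do not say whether a group's 4 samples derive from different animals or dishes. All p-values thus rest on the spread of these samples alone, part or all of which could be technical.

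Pparg encodes PPARγ, a nuclear receptor that binds DNA together with a retinoid X receptor and is required for the formation of fat cells and for much of their lipid metabolism. In brown fat, whose mitochondria burn fatty acids for heat through the uncoupling protein Ucp1, its textbook targets include genes of fatty acid uptake, triglyceride storage and thermogenesis. Glycerol kinase, the gene Gk (Gyk in the labels), phosphorylates glycerol for triglyceride synthesis and is the enzyme that the title of the series names. Brown fat of a mouse also holds blood vessels, nerves, fibroblasts and immune cells. A culture of adipocytes holds few of these.

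Each array read total RNA, with Cy3 dye, as spot intensities. Values below are log2 intensities relative to the 75th percentile of the array, and effects and differences are on the same log2 scale, so that 1 is a factor of 2. The 75th percentile was 292.7 to 406.2 intensity units on the mouse control arrays, 498.5 to 603.7 on the arrays labelled knockout, 592.5 to 776.3 on the culture controls and 588.8 to 806.3 on the knockdown arrays. It did not overlap between the mouse groups, and its part in the mouse effects was not tested. Between 23075 and 26185 spots per array were well above background. Each system was scanned on its own day on 2 slides of its own, which each carried control samples and samples labelled knockout or knockdown. Levels in mice and in culture therefore cannot be told apart from slide and scan, and effects were taken within each system.

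All 6 brown adipocyte markers and all 5 adipocyte markers passed the background limit on at least 3 arrays of both mouse groups and of the culture controls, and 5 of each did in the knockdown. The label preadipocyte is thus joined to adipocyte transcripts. Summed adipocyte markers, as log2, were 10.1 to 10.5 in control mice, 9.21 to 9.32 in arrays labelled knockout, 9.38 to 9.70 in control cultures and 8.01 to 8.45 in the knockdown. Endothelial markers (6 on the array) summed to 4.08 to 4.54 and 3.67 to 3.92 in the mouse groups but 0.78 to 1.15 and 1.05 to 1.65 in culture, where 2 and 3 of the 6 were detected. Red blood cell markers summed to 9.75 to 10.9 and 9.22 to 9.83 in mice and to −3.04 to −2.22 and −2.37 to −1.97 in culture. Skeletal muscle markers summed to −3.14 to −1.89 in knockout arrays 2 to 4 and to 4.22 in knockout array 1, against −2.59 to −1.73 in the mouse controls, so that knockout array 1 stood apart.

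**Figure D1:**
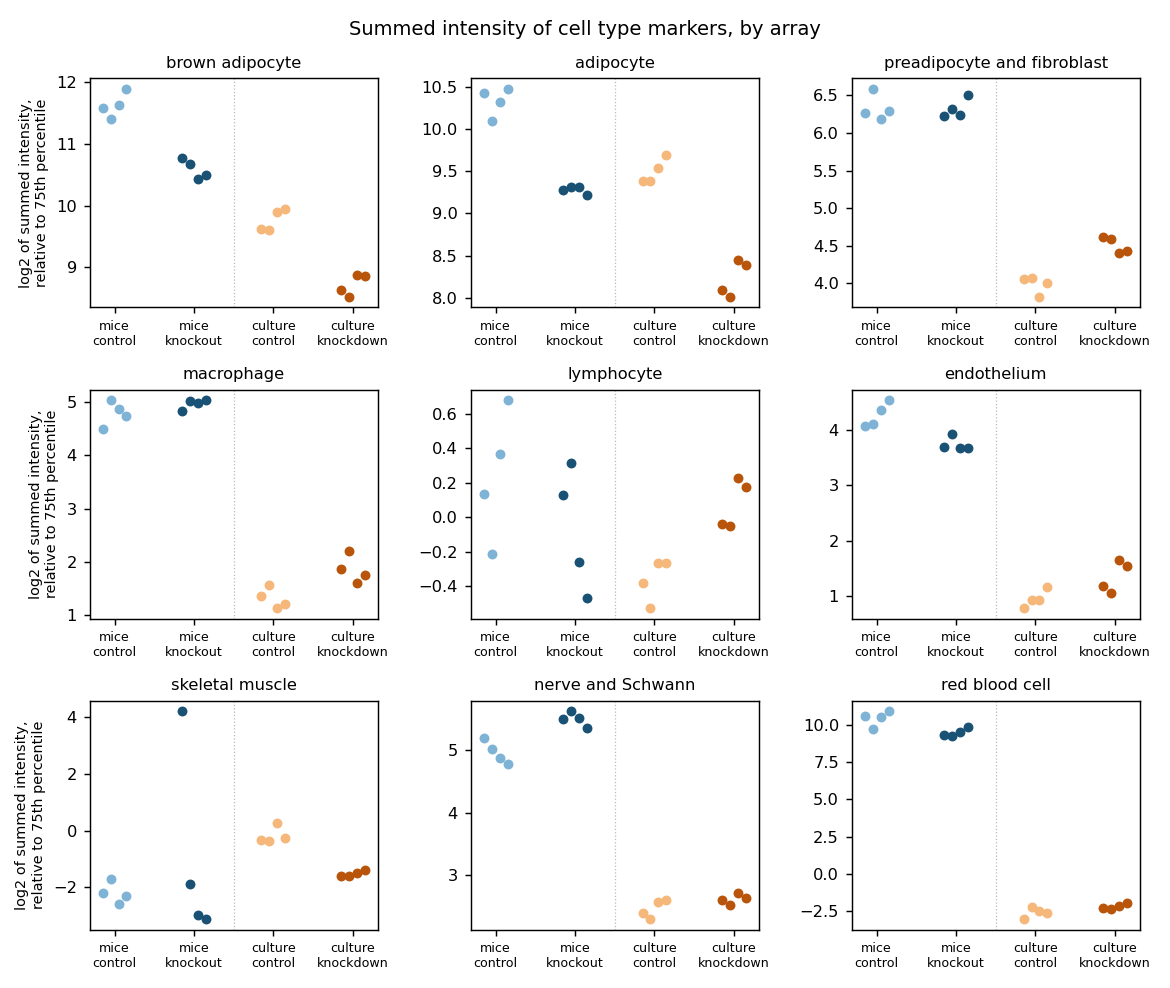
Summed intensity of the marker genes of 9 cell types on each of the 16 arrays, as log2 relative to the 75th percentile of the array; points are single arrays in 4 groups, with no error bars. Brown adipocyte and adipocyte markers are lower in the arrays labelled knockout and in the knockdown than in their controls, endothelial and red blood cell markers are high only on the mouse arrays, and skeletal muscle markers reach 4.22 on knockout array 1.

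Pparg itself moved in opposite directions in the 2 systems. On the mouse arrays the Pparg probe read 5.53, 5.26, 5.47 and 5.29 in the controls and 7.50, 7.53, 7.44 and 7.37 in the arrays labelled knockout. In culture it read 6.0, 5.97, 6.29 and 6.34 in the controls and 4.10, 4.10, 4.38 and 4.36 in the knockdown. The groups did not overlap in either system, as for 44.8% of all genes in mice and 35.4% in culture: the transcript was lower in every knockdown array and higher in every array labelled knockout. The effect was log2 2.08, SE 0.0889, adjusted p = 4.42e-06 in mice and log2 −1.91, SE 0.12, adjusted p = 8.85e-06 in culture, and the difference was log2 3.99, SE 0.15, adjusted p = 4.36e-10. The exact 2-sided permutation p was 0.0286 in each system, the smallest that 70 label orders of 4 against 4 arrays allow. In the cold, outside this comparison, the probe read 5.28 to 6.41 in control mice and 7.90 to 8.06 in the arrays labelled knockout. Pparg has a single probe here, printed in 10 spots, and the sources used here do not say whether it lies inside the deleted part. If it lies outside, it checks nothing about the deletion. Whether the labels of the mouse groups were exchanged was not tested. The mouse group is therefore called by its label throughout, and every direction in mice below rests on that label.

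Ucp1 and Gk fell in both systems. Ucp1 read 10.03, 9.85, 10.22 and 10.57 in control mice, 9.32, 9.39, 8.92 and 8.98 in arrays labelled knockout, 6.34, 6.35, 6.69 and 6.67 in control cultures and 3.59, 3.72, 3.82 and 3.57 in the knockdown. The groups did not overlap in either system, and the fall was larger in culture (log2 −2.84, SE 0.11, adjusted p = 8.07e-07) than in mice (log2 −1.02, SE 0.18, adjusted p = 0.00213), with a difference of log2 1.82, SE 0.22 (adjusted p = 2.04e-05). Gk read 3.1, 2.62, 3.23 and 3.46 in control mice and 1.99, 2.52, 1.96 and 2.66 in arrays labelled knockout, where knockout array 4 overlapped control array 2, and 0.77, 0.85, 0.99 and 0.93 in control cultures and −0.63, −0.70, −0.30 and −0.61 in the knockdown, where the groups did not overlap. Its effect was log2 −0.82, SE 0.22, adjusted p = 0.017 in mice (exact 2-sided permutation p = 0.0571) and log2 −1.44, SE 0.10, adjusted p = 1.78e-05 in culture (exact permutation p = 0.0286). The difference missed the threshold (log2 0.62, SE 0.26, adjusted p = 0.0753). It passed with quantile scaling (adjusted p = 0.0482), with median scaling (adjusted p = 0.0216) and without mouse control 4, knockout array 1 or knockout array 3 (0.0393, 0.0498 and 0.0449).

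**Figure D2:**
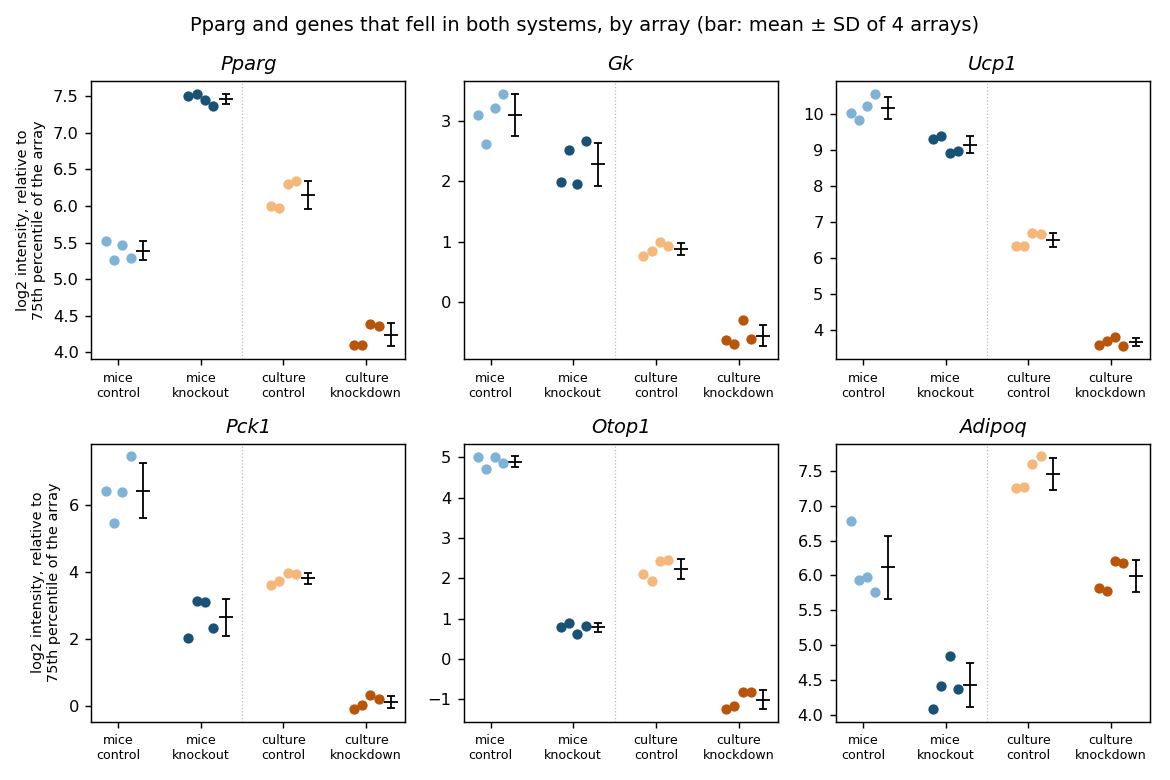
Log2 intensity relative to the 75th percentile of the array for Pparg and for 5 genes that fell in both systems, with 1 point per array in 4 groups; bars are the mean ± SD of 4 arrays. Pparg is higher in all 4 arrays labelled knockout and lower in all 4 knockdown arrays, while Ucp1, Pck1, Otop1 and Adipoq are lower in every array of both without overlap, and Gk overlaps in mice.

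Many genes changed in each system, and those called in both mostly went the same way. Of 13232 genes tested in mice, 5903 passed an adjusted p of 0.05 in the limma fit (44.6%), 2590 higher and 3313 lower. In culture, 4375 of 12843 passed (34.1%), 2323 higher and 2052 lower. With the replicate number as a block, which also takes out the difference between the culture slides, 7407 passed. Among the 11923 genes tested in both systems, 2093 were called in both. Of these, 1666 had the same sign (79.6%), which is 30.6% of the mouse calls and 41.8% of the culture calls in this set. With the sign of the mouse effects turned, as an exchange of the mouse labels would do, 427 would have the same sign (20.4%) and 1666 opposite signs. The counts trade places by construction, so they do not bear on whether the labels were exchanged. By the labels as given, the 1666 are named shared below: 1011 of them fell (8.48% of the genes tested) and 655 rose (5.49%), 14.0% together. The 427 with opposite signs (3.58%; 674 with the replicate block) comprise 193 that were higher in mice and lower in culture and 234 the other way. The direct test of the difference of effects called 3785 genes (31.7%), 1698 with the higher effect in mice and 2087 with the lower.

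An effect in 1 system was accepted only where the difference of effects also passed. By that rule 1671 genes changed in mice only (14.0%; 770 rose and 901 fell) and 994 in culture only (8.34%; 591 rose and 403 fell; 1779 in all with the replicate block). Another 2586 genes were called in 1 system without a called difference and remain unresolved, and 4365 had no call at all. Without knockout array 1 the counts were 1589 shared, 333 opposite, 1408 in mice only and 1003 in culture only. The direction of the calls moved with the scaling: higher genes made up 43.9% of the mouse calls, 53.1% of the culture calls and 44.9% of the called differences, but 59.0%, 35.7% and 73.5% with each array's median subtracted. The median effect of all genes tested then moved from −0.05 to 0.07 in mice, from 0.03 to −0.11 in culture, and from −0.05 to 0.20 for the difference.

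Across the 11923 genes the effects correlated at Pearson r = 0.36 and Spearman rho = 0.32, as a description over genes, which are not independent. The same effects correlated at 0.823 between the slides of the mice and at 0.935 between the slides of the culture, and at 0.29 to 0.39 between a slide of the mice and a slide of the culture. The effects share no arrays. The median absolute effect was 0.34 in mice and 0.24 in culture.

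**Figure D3:**
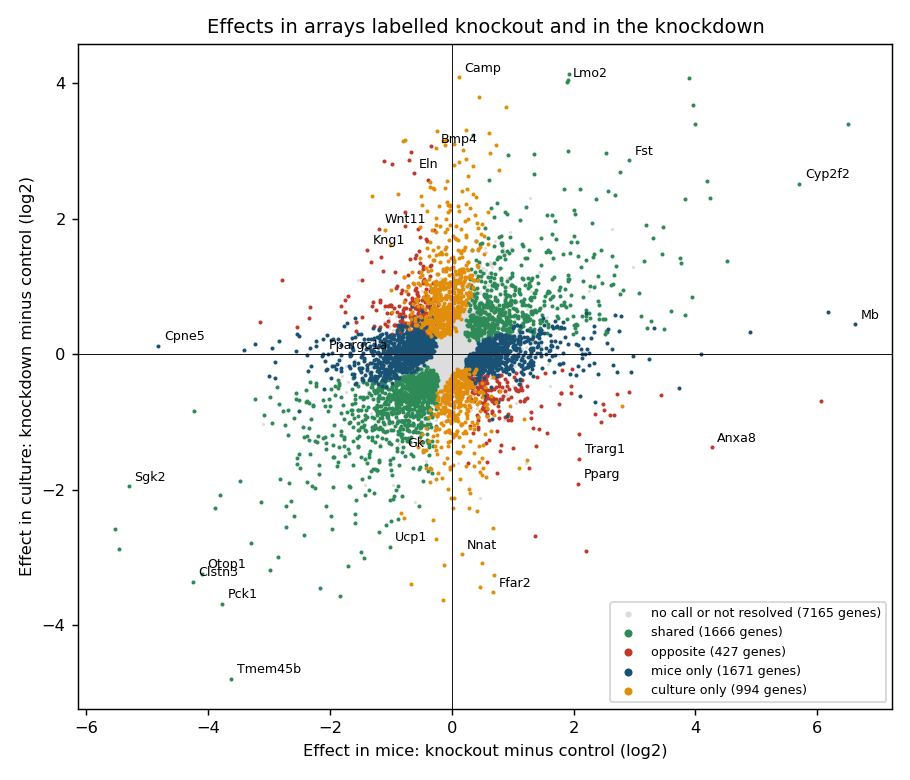
Effect in mice (horizontal, arrays labelled knockout minus control, log2) against the effect in culture (vertical, knockdown minus control, log2) for the 11923 genes tested in both systems, 1 point per gene, coloured by class. The 1666 shared genes fill the lower left and upper right, and the 427 opposite genes, Pparg among them, the other corners. The 1671 and 994 genes of a single system missed the threshold in the other system, where an effect may remain.

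The shared falling genes named by size encode an enzyme, a proton channel and membrane proteins. Pck1, the cytosolic phosphoenolpyruvate carboxykinase that feeds glyceroneogenesis, read 6.40, 5.45, 6.38 and 7.44 in control mice and 2.02, 3.13, 3.11 and 2.34 in arrays labelled knockout, and 3.62, 3.71, 3.97 and 3.92 in control cultures and −0.09, 0.05, 0.32 and 0.21 in the knockdown. Every array labelled knockout and every knockdown array lay below its controls, with effects of log2 −3.77, SE 0.42 and log2 −3.68, SE 0.12 and no called difference (log2 −0.09, SE 0.46, adjusted p = 0.911). Otop1, a proton channel, read 5.0, 4.72, 5.0 and 4.86 in control mice and 0.80, 0.91, 0.63 and 0.82 in arrays labelled knockout and 2.12, 1.95, 2.42 and 2.46 in control cultures and −1.24, −1.17, −0.81 and −0.80 in the knockdown. Its fall was larger in mice (−4.10 against −3.24; difference log2 −0.86, SE 0.19, adjusted p = 0.00283; adjusted p = 0.0505 with median scaling). Clstn3, a calsyntenin, changed by −4.25 in mice and −3.36 in culture (difference log2 −0.89, SE 0.19, adjusted p = 0.00267). Tmem45b, a transmembrane protein gene, changed by −3.62 in mice and further, by −4.79, in culture (difference log2 1.17, SE 0.22, adjusted p = 0.00109). In these bulk samples fewer cells of a type and less RNA per cell cannot be told apart.

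Of the fat cell markers, Adipoq, Fabp4 and Cidea fell in both systems by similar amounts. Adipoq, which encodes the hormone adiponectin, read 6.78, 5.94, 5.97 and 5.76 in control mice and 4.09, 4.42, 4.85 and 4.38 in arrays labelled knockout and 7.25, 7.27, 7.59 and 7.71 in control cultures and 5.82, 5.78, 6.21 and 6.18 in the knockdown, effects of log2 −1.68, SE 0.24 and log2 −1.46, SE 0.15. Fabp4, the fatty acid binding protein of adipocytes, had −1.10 and −1.15, and the lipid droplet protein Cidea had −1.42 and −1.55. For these 3 genes the difference was not called (adjusted p = 0.612, adjusted p = 0.84 and adjusted p = 0.646), although with quantile scaling those of Fabp4 and Cidea were (log2 0.82 and 0.79). The other adipocyte markers had called differences: Plin1 (−0.54 and −1.70; difference 1.16), Lipe (−0.99 and −2.47; 1.47) and Cd36 (−0.27 and −1.12; 0.85). The mouse effect of Cd36 was not called. Of the brown adipocyte markers, Dio2 and Adrb3 fell in culture and were not called in mice (0.03 and −0.10), while Ucp1, Cidea, Cox7a1 and Ppara fell in both. Over all shared genes, 1187 had no called difference, while 331 changed further in mice and 148 further in culture. Of the shared genes, 233 changed at least 2-fold in both systems, 142 of them lower.

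Promoter sequences are shown for 3 shared falling genes because PPARγ with its partner binds direct repeats of AGGTCA that are spaced by a base. They come from RefSeq on the GRCm38.p6 assembly and run from 250 bases before to 50 bases after an annotated start, 5′ to 3′ on the strand of the gene, with AGGTCA or its full repeat in capitals. The windows are Ucp1 at chr8:83290098-83290397 on the plus strand, with 1 AGGTCA starting 14 bases before the start, Pck1 at chr2:173152823-173153122 on the plus strand, with none, and Isca1, a gene for an iron-sulfur cluster assembly protein, at chr13:59769740-59770039 on the minus strand, with the full repeat from base −134.
Ucp1: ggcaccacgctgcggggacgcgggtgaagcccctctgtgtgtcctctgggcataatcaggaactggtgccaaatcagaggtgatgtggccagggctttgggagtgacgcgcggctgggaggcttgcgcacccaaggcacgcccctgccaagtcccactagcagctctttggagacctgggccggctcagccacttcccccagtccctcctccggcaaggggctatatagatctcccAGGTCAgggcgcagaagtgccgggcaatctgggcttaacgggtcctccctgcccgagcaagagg
Pck1: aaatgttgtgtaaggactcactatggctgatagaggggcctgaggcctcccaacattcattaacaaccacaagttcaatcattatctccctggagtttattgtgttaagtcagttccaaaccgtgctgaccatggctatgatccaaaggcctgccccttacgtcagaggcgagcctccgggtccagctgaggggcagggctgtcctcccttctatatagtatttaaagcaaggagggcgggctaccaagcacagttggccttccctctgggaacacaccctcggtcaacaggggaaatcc
Isca1: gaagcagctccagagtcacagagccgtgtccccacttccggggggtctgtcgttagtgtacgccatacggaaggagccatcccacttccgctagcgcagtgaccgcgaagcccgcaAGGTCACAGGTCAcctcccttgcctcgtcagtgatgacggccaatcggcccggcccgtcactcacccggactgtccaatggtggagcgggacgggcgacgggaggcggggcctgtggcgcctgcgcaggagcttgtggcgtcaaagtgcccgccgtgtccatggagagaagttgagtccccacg

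The repeat was searched on both strands as 2 copies of AGGNCA in the same orientation with 1 base between, where N is any base. Of the 1011 shared falling genes, 827 had a promoter in the table, and 1 of them, Isca1 (effects −0.49 in mice and −0.77 in culture), held it (0.121%), against 29 of 9503 genes tested in both systems (0.305%) and 122 of 27025 genes of the table (0.451%). Of the 109 promoters of genes that fell at least 2-fold in both, 0 held it. The single AGGTCA, a search added after values had been seen and one that overlaps the repeat, was in 150 of the 827 (18.1%), in 26 of the 109 (23.9%), in 1446 of the 9503 (15.2%) and in 4900 of the 27025 (18.1%). A match is a description of these letters within 300 bases, not a binding site, and most of a gene's regulatory sequence lies elsewhere.

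The shared rising genes named by size encode a secreted activin antagonist, an acute-phase protein and enzymes. Fst, follistatin, read −0.81, −0.94, −1.42 and −1.53 in control mice and 1.70, 1.62, 1.97 and 1.68 in arrays labelled knockout, and −0.83, −0.98, −0.92 and −1.0 in control cultures and 1.95, 1.94, 1.93 and 1.90 in the knockdown. The groups did not overlap, with rises of log2 2.92, SE 0.18 and log2 2.86, SE 0.0701 and no called difference (log2 0.05, SE 0.19, adjusted p = 0.867), a miss that does not show that the systems act alike. Orm3, an orosomucoid of the acute phase with close paralogs whose signal its probe may share, rose by 2.76 and 2.69 (difference adjusted p = 0.886). Cbs, the cystathionine synthase of the transsulfuration pathway, read −2.28 to −0.40 in control mice and 1.77 to 3.48 in arrays labelled knockout and −2.37 to −1.87 in control cultures and −0.02 to 0.35 in the knockdown, a larger rise in mice (4.24 against 2.30; difference log2 1.93, SE 0.53, adjusted p = 0.0123). Cyp2f2, a cytochrome P450, read −2.40, −1.81, −2.43 and −2.85 in control mice and 2.17, 3.54, 5.08 and 2.55 in arrays labelled knockout and −1.59, −1.47, −1.21 and −1.05 in control cultures and 1.19, 1.14, 1.21 and 1.22 in the knockdown. Its rise in mice (log2 5.71, SE 0.58) exceeded that in culture (log2 2.52, SE 0.12) by log2 3.19, SE 0.63 (adjusted p = 0.00136), and its knockout arrays had a wide spread of 3.34 ± 1.30 (SD, n = 4).

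Some shared genes differed in size. Sgk2, a serum and glucocorticoid regulated kinase, fell from 2.54 ± 1.14 (SD, n = 4) to −2.77 ± 0.79 (SD, n = 4) in mice and from 1.73 ± 0.0843 (SD, n = 4) to −0.22 ± 0.0798 (SD, n = 4) in culture, a difference of log2 −3.36, SE 0.63, adjusted p = 0.00093. Cntfr, a receptor for ciliary neurotrophic factor, changed by −4.24 in mice and by −0.83 in culture (adjusted p = 0.0374), a culture call that 6 single culture arrays each removed when left out. Lmo2, a LIM-domain transcriptional partner, rose from −4.24 ± 0.0345 (SD, n = 4) to −0.22 ± 0.12 (SD, n = 4) in culture and from 0.34 ± 0.13 (SD, n = 4) to 2.24 ± 0.28 (SD, n = 4) in mice. The matrix metalloprotease Mmp11 rose by 4.14 in culture and 1.93 in mice (difference log2 −2.20, SE 0.29, adjusted p = 5.93e-05), and the zinc finger gene Zfp521 by 2.57 and 0.61 (difference log2 −1.96, SE 0.43, adjusted p = 0.00312). With normexp background correction, which draws dim values together, the differences of Lmo2 and Zfp521 were log2 −0.35 (adjusted p = 0.582) and −0.76 (adjusted p = 0.192).

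Genes that were not well above background in a whole group allow only a bound, the fold over the higher of the dim signal and the lowest signal called well above background. Cyp4f14, another cytochrome P450, was dim on all control arrays of both systems and bright on all 8 others, and rose at least 39.0-fold in mice and at least 4.98-fold in culture (adjusted p = 8.29e-06 and adjusted p = 1.46e-06). Adamtsl2, a secreted matrix glycoprotein gene, showed the same pattern, at least 4.84-fold and at least 12.2-fold. B4galnt2, a glycosyltransferase gene, fell at least 18.7-fold in mice, where it was dim in all arrays labelled knockout, and changed by −2.58 in culture. In genes tested in 1 system only, Fbp1, a fructose bisphosphatase of gluconeogenesis, read −0.56, −1.01, −1.51 and −2.0 in control mice and 5.93, 5.66, 5.59 and 5.66 in arrays labelled knockout (log2 6.98, SE 0.28, adjusted p = 3.89e-06) and was not well above background on any culture array. Sult1e1, the oestrogen sulfotransferase, rose by 5.65 with 2 of 4 control arrays well above background, while Amn and Fam131c fell at least 9.09-fold and 18.5-fold in mice. In culture Ccdc13 rose at least 19.3-fold and Gdpd2, with 2 of 4 control arrays well above background, rose by 4.53, while Tex19.1 and Serpinb9f fell at least 11.8-fold and 5.87-fold. Over all genes, 1309 were tested in mice only (218 rose, 233 fell) and 920 in culture only (300 rose, 90 fell).

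The opposite genes were higher than in the controls in one of the 2 groups, arrays labelled knockout or knockdown, and lower in the other. Anxa8, an annexin that binds phospholipids with calcium, read −3.73, −3.34, −3.86 and −3.90 in control mice and 0.14, 0.28, 1.18 and 0.63 in arrays labelled knockout, but 1.33, 1.29, 1.65 and 1.76 in control cultures and 0.03, −0.04, 0.22 and 0.34 in the knockdown. Its effects were log2 4.27, SE 0.23 and log2 −1.37, SE 0.14, with no overlap between groups in either system, and the difference was log2 5.63, SE 0.28, adjusted p = 7.29e-09 (log2 3.67 with normexp). Another Anxa8 probe gave 1.93 and −1.34. Trarg1, a regulator of glucose transporter trafficking in fat cells, read 1.54, 1.87, 0.99 and 0.09 in control mice and 3.47, 3.14, 3.18 and 3.08 in arrays labelled knockout and 0.97, 1.04, 1.33 and 1.40 in control cultures and −0.52, −0.55, −0.20 and −0.16 in the knockdown. Every array labelled knockout lay above the mouse controls and every knockdown array below its own (log2 2.09, SE 0.34 and log2 −1.54, SE 0.14; difference log2 3.64, SE 0.39, adjusted p = 8.26e-06). Mmd, a gene induced as monocytes become macrophages, had effects of 1.39 and −1.36 (difference log2 2.75, SE 0.39, adjusted p = 0.000102).

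In the other direction stood kininogens, a Wnt ligand and a protease inhibitor. Kng1, a precursor of bradykinin, read 6.58, 6.96, 7.13 and 7.13 in control mice and 5.59, 5.67, 5.44 and 5.56 in arrays labelled knockout, and 3.57, 3.43, 4.01 and 4.05 in control cultures and 5.17, 5.09, 5.40 and 5.59 in the knockdown. The groups did not overlap: the transcript fell in mice (log2 −1.39, SE 0.13) and rose in culture (log2 1.55, SE 0.17), a difference of log2 −2.93, SE 0.23, adjusted p = 4.36e-07. Kng2, its close paralog, had effects of −1.32 and 1.36, and the pair may share signal on these probes. Wnt11 read −1.88, −2.21, −2.36 and −1.86 in control mice and −3.56, −3.44, −2.87 and −3.21 in arrays labelled knockout and −3.50, −3.09, −3.25 and −3.12 in control cultures and −1.48, −1.49, −1.41 and −1.18 in the knockdown, effects of −1.19 and 1.85 (difference log2 −3.04, SE 0.22, adjusted p = 2.53e-07; log2 −1.47 with normexp). Timp4, an inhibitor of metalloproteases, read 3.04, 2.69, 3.38 and 2.93 in control mice and 1.40, 1.57, 2.47 and 1.93 in arrays labelled knockout and −3.29, −3.31, −2.99 and −3.17 in control cultures and −1.99, −2.01, −1.59 and −1.41 in the knockdown, without overlap. It changed by −1.17 in mice and rose by 1.44 in culture. With normexp the mouse fall of Wnt11 and the culture rise of Timp4 were no longer called (adjusted p = 0.121 and adjusted p = 0.23). All 427 opposite genes also passed the test of the difference, and 21 of them changed at least 2-fold in both systems.

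**Figure D4:**
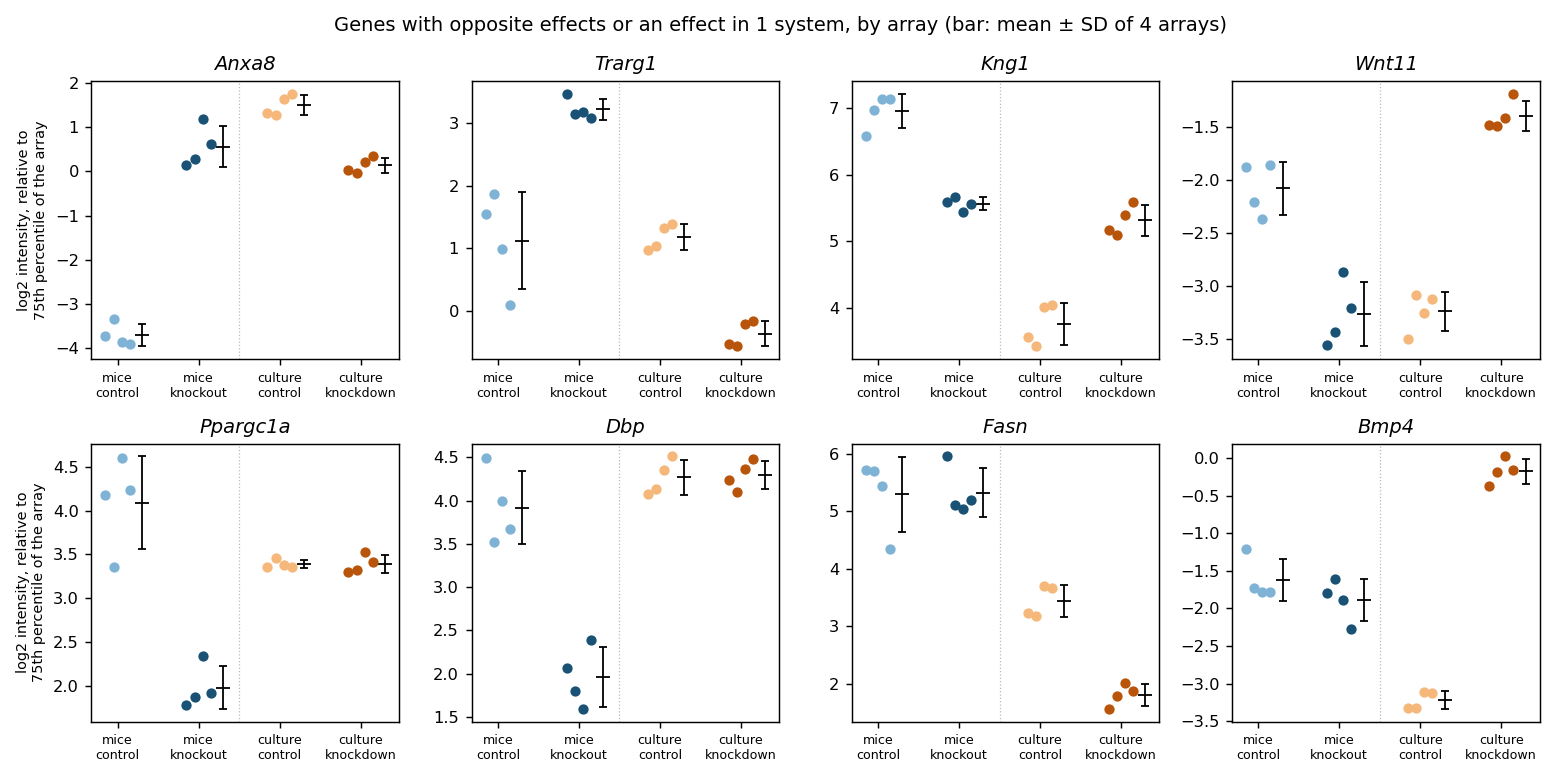
Log2 intensity relative to the 75th percentile of the array for 8 genes whose effects differ between the systems, with 1 point per array in 4 groups; bars are the mean ± SD of 4 arrays. Anxa8 and Trarg1 rise in mice and fall in culture, Kng1 and Wnt11 do the reverse, Ppargc1a and Dbp are lower in the arrays labelled knockout and overlap between the culture groups, and Fasn is lower and Bmp4 higher in the knockdown and overlap between the mouse groups.

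The genes changed in mice only included muscle-type, neuronal and calcium-binding genes. Mb, myoglobin, which stores oxygen in muscle, read 2.08, −1.16, −1.47 and 0.68 in control mice and 6.82, 7.04, 6.60 and 6.19 in arrays labelled knockout, and 3.59, 3.80, 4.24 and 4.18 in control cultures and 4.16, 4.30, 4.65 and 4.47 in the knockdown. It rose in mice (log2 6.63, SE 0.72, adjusted p = 0.000218) far more than in culture (log2 0.44, SE 0.17, adjusted p = 0.0757; adjusted p = 0.00175 with the replicate block, which makes the gene shared), a difference of log2 6.19, SE 0.78, adjusted p = 3.78e-05. Without knockout array 1 its mouse effect was 6.58, and the 6 summed skeletal muscle markers, which leave out Mb, were −3.14 to −1.89 on the other 3 knockout arrays against −2.59 to −1.73 in the controls. Dusp14, a phosphatase of the MAP kinase pathway, read −0.68, −1.25, −1.71 and −2.39 in control mice and 1.90, 1.80, 1.96 and 1.27 in arrays labelled knockout and −1.45 to −1.23 in control cultures and −1.54 to −1.24 in the knockdown. Its mouse groups did not overlap and its culture groups did (3.24 and −0.07; difference log2 3.31, SE 0.37, adjusted p = 1.28e-05). Neurl1a, a ubiquitin ligase gene, rose by 2.95 in mice with −0.26 in culture, and the pseudogene Hmga2-ps1, whose signal may include its parent gene, by 2.35 with −0.70 in culture. With the replicate block the culture falls of Neurl1a and Hmga2-ps1 passed (adjusted p = 0.0143 and adjusted p = 0.000426), which makes them opposite.

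Cpne5, a copine that binds membranes with calcium, read 2.70, 3.37, 3.58 and 3.19 in control mice and −0.96, −1.75, −1.82 and −1.89 in arrays labelled knockout, and −3.02 to −2.64 in control cultures and −2.90 to −2.56 in the knockdown. The difference was log2 −4.94, SE 0.29, adjusted p = 3.41e-08, and log2 −2.36 as the mean of its 3 probes. Ntrk3, a neurotrophin receptor, read 2.03, 1.90, 1.49 and 0.41 in control mice and −1.77, −1.93, −1.89 and −2.20 in arrays labelled knockout against 1.0 ± 0.12 (SD, n = 4) and 1.07 ± 0.0456 (SD, n = 4) in culture. It changed by −3.41 in mice, and 3 other probes gave −3.88 to −3.16 there and −0.04 to 0.07 in culture. Cacna1a, a calcium channel subunit, changed by −2.96 in mice with 0.10 in culture, and Spdef, an ETS family factor, by −3.24 with 0.15 (difference with normexp log2 −1.38, adjusted p = 0.0608). Saa3, a serum amyloid, was dim in all mouse controls and rose at least 20.6-fold in mice, while in culture it had log2 0.63, SE 0.22, adjusted p = 0.0534 (adjusted p = 0.0216 with the replicate block).

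The genes changed in culture only included a growth factor, a receptor of fatty acids and an adenylyl cyclase. Bmp4, a bone morphogenetic protein, read −3.32, −3.33, −3.11 and −3.12 in control cultures and −0.38, −0.19, 0.02 and −0.16 in the knockdown, and −1.21, −1.73, −1.78 and −1.78 in control mice and −1.79, −1.61, −1.88 and −2.28 in arrays labelled knockout, which overlapped. It rose by 3.04 in culture with −0.26 in mice, a difference of log2 −3.31, SE 0.21, adjusted p = 1.14e-07. Camp, the antimicrobial cathelicidin, read −2.81, −2.88, −2.46 and −2.33 in control cultures and 1.25, 1.33, 1.56 and 1.74 in the knockdown and stayed between −3.31 and −2.93 on the 8 mouse arrays (4.09 and 0.12; difference log2 −3.97, SE 0.19, adjusted p = 4.28e-09). Fbln7, a fibulin of the matrix, rose by 3.32 in culture with 0.23 in mice, and Mlana, a protein of melanosomes, by 3.79 with 0.44.

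Ffar2, a receptor of short-chain fatty acids, read −0.36, −0.33, 0.17 and 0.16 in control cultures and −3.92, −3.40, −3.68 and −3.41 in the knockdown, while the mouse groups overlapped at −4.79 to −2.78 and −3.98 to −2.23. Its difference was log2 4.19, SE 0.58, adjusted p = 7.64e-05. Adcy5, an adenylyl cyclase that makes cyclic AMP, read 1.21, 1.26, 1.72 and 1.88 in control cultures and −2.05, −2.28, −1.75 and −1.62 in the knockdown, a fall of log2 −3.44, SE 0.20, with log2 0.46, SE 0.22 in mice and a difference of log2 3.90, SE 0.31, adjusted p = 6.17e-07. Clec10a, a lectin of macrophages and dendritic cells, changed by −3.27 in culture with 0.69 in mice (adjusted p = 0.0574). Ly6h changed by −3.08 with 0.50 in mice.

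Gene lists were described by counts and medians beside those of all genes tested in both systems, of which 19.9% rose and 25.8% fell in mice, 17.0% rose and 16.5% fell in culture, and 14.2% and 17.5% had a difference called higher or lower in mice. The medians over all these genes were −0.05 in mice, 0.01 in culture and −0.05 for the difference. The lists come from textbook knowledge, were chosen with earlier results of these data known, and share some members.

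Thermogenic and brown adipocyte genes fell in both systems. Of 19 tested, 12 fell and 4 rose in mice (median −0.88), 14 fell and 2 rose in culture (median −1.18), and 11 were shared falls. Beside Ucp1, Otop1 and Cidea, these included Cox8b, a subunit of cytochrome c oxidase (−1.30 in mice and −1.27 in culture), and Ppara, a nuclear receptor of fatty acid oxidation (−2.51 and −1.48). Ppargc1a, the coactivator that drives mitochondrial biogenesis, read 4.18, 3.35, 4.60 and 4.23 in control mice and 1.79, 1.87, 2.34 and 1.92 in arrays labelled knockout, but 3.36, 3.46, 3.38 and 3.35 in control cultures and 3.29, 3.32, 3.52 and 3.42 in the knockdown. It fell in mice without overlap (log2 −2.11, SE 0.25, adjusted p = 0.000354) and had log2 0.0, SE 0.0778 in culture, a difference of log2 −2.12, SE 0.28, adjusted p = 5.10e-05. Dio2, the deiodinase that activates thyroid hormone, read 4.09, 3.25, 4.43 and 4.79 in control mice and 3.71, 4.28, 4.34 and 4.34 in arrays labelled knockout, which overlapped (log2 0.03, SE 0.31), and fell at least 3.52-fold in culture, where it was dim on all knockdown arrays (test of the difference adjusted p = 0.00128; adjusted p = 0.235 with normexp). Prdm16, a determinant of brown fat, rose in mice (log2 0.56, SE 0.12, adjusted p = 0.00718) and fell in culture (log2 −1.31, SE 0.22, adjusted p = 0.00187). Ucp3, a relative of Ucp1, rose by 2.10 in mice with log2 −0.62, SE 0.30, adjusted p = 0.156 in culture (adjusted p = 0.00036 with the replicate block), although another probe gave 0.18 in mice.

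More genes of the lipid droplet and of lipolysis fell than rose in each system, with most called differences higher in mice. Shared falls were 6 of 14 and 6 of 19. Of 14 lipid droplet genes, 8 fell and 4 rose in mice (median −0.46), 8 fell and 1 rose in culture (median −0.99), and 8 of the 10 called differences were higher in mice. Cidec, which fuses droplets, changed by −1.59 and −2.36, and Plin5, which tethers droplets to mitochondria, by −0.88 and −2.44 (difference log2 1.55, SE 0.14, adjusted p = 1.68e-06). Hilpda, an inhibitor of lipolysis induced by hypoxia, rose in mice only (1.54 and 0.09; difference log2 1.45, SE 0.16, adjusted p = 1.13e-05). Of 19 lipolysis genes, 11 fell and 1 rose in each system (medians −0.54 and −1.04). The monoglyceride lipase Mgll read 6.66 to 7.05 in control mice and 6.64 to 6.83 in arrays labelled knockout, which overlapped, and 4.67 to 4.85 in control cultures and 2.72 to 2.86 in the knockdown, a fall of log2 −1.98, SE 0.0746 there and a difference of log2 1.92, SE 0.13, adjusted p = 1.16e-07. The adenosine receptor Adora1 fell in both (−1.42 and −2.07; difference log2 0.65, SE 0.22, adjusted p = 0.0319; adjusted p = 0.0714 with normexp).

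Fatty acid uptake and triglyceride synthesis fell in part in both systems. Of 18 uptake and activation genes, 10 fell and 5 rose in mice (median −0.30; 6 fell with normexp) and 9 fell and 0 rose in culture (median −0.28). The fatty acid binding protein Fabp3 changed by −2.49 and −1.68, the acyl-CoA synthetase Acsl4 rose in mice only (log2 2.14, SE 0.08, adjusted p = 3.48e-06; −0.06 in culture), and Angptl8, an inhibitor of lipoprotein lipase, fell in culture only (log2 −2.56, SE 0.21, adjusted p = 3.63e-05; 0.68 in mice). The called difference of Fabp3 (log2 −0.81, adjusted p = 0.0484) lost its call in 18 of 29 alternatives. Of 20 genes that make glycerol phosphate and triglyceride, 12 fell and 4 rose in mice (median −0.68) and 14 fell and 1 rose in culture (median −0.997). The acyltransferase Agpat2 changed by −2.68 and −1.90 (difference log2 −0.78, SE 0.23, adjusted p = 0.018; adjusted p = 0.122 with median scaling). Dgat2, the last enzyme of triglyceride synthesis, rose in mice (log2 0.78, SE 0.19, adjusted p = 0.00985) and fell in culture (log2 −0.84, SE 0.11, adjusted p = 0.00053), and Mogat2, a monoacylglycerol acyltransferase with 2 of 4 mouse controls well above background, rose by 4.90 in mice with 0.32 in culture (adjusted p = 0.00143 with the replicate block, which makes it shared). The phosphatidate phosphatase Lpin1 read 2.32, 2.44, 2.67 and 2.32 in control cultures and 0.52, 0.67, 0.65 and 0.80 in the knockdown, without overlap, and 2.94 to 3.67 in control mice and 3.62 to 4.25 in arrays labelled knockout, with overlap, a difference of log2 2.27, SE 0.24, adjusted p = 6.65e-06.

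De novo lipogenesis genes fell in culture and were seldom called in mice. Of 17 genes, 12 fell and 0 rose in culture (median −0.76), while 1 fell and 1 rose in mice (median 0.24), and all 8 called differences were higher in mice. By slide the mouse median was −0.24 on mouse slide 1 and 0.40 on mouse slide 2. Fasn, the fatty acid synthase, read 3.23, 3.17, 3.69 and 3.66 in control cultures and 1.55, 1.79, 2.01 and 1.87 in the knockdown, against 5.72, 5.70, 5.44 and 4.34 in control mice and 5.96, 5.10, 5.04 and 5.20 in arrays labelled knockout, where the groups overlapped. Its fall in culture was log2 −1.63, SE 0.15, with log2 0.03, SE 0.34 in mice and a difference of log2 1.66, SE 0.39, adjusted p = 0.00463. Acly, which makes cytosolic acetyl-CoA, had log2 −0.76, SE 0.11, adjusted p = 0.000815 in culture and log2 0.95, SE 0.39, adjusted p = 0.0789 in mice, and Srebf1, the lipogenic transcription factor, log2 −1.13, SE 0.16, adjusted p = 0.000735 and log2 0.65, SE 0.30, adjusted p = 0.111. Mlycd, which degrades malonyl-CoA, was the shared member (−1.16 and −0.77). Of 24 genes of cholesterol synthesis and sterol control, 11 rose and 0 fell in mice (median 0.51; 7 rose with normexp), and in culture 2 rose and 7 fell (median 0.04, and −0.09 with median scaling). The mouse median of this list was 0.13 on mouse slide 1 and 0.86 on mouse slide 2. Idi1, an isomerase of the sterol pathway, rose in mice (log2 1.46, SE 0.24, adjusted p = 0.00177) with −0.02 in culture. Insig1, the sterol-sensing brake of the pathway, fell in culture (log2 −0.73, SE 0.14, adjusted p = 0.0035) with log2 0.58, SE 0.22, adjusted p = 0.0612 in mice.

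More mitochondrial genes fell than rose in each system, those of fatty acid oxidation and the TCA cycle further in culture. Shared falls were 14 of 21 for fatty acid oxidation and 10 of 20 for the TCA cycle. Of 21 fatty acid oxidation genes, 14 fell and 1 rose in mice (median −0.41; 9 fell and 5 rose with quantile scaling, and 7 fell with median scaling) and 20 fell and 0 rose in culture (median −1.11), and all 13 called differences were higher in mice (7 with normexp). Slc25a20, the acylcarnitine carrier, fell in both (log2 −1.35, SE 0.12 and log2 −1.43, SE 0.12; difference adjusted p = 0.762). Cpt1a, the entry step of the liver type, rose in mice only (log2 1.30, SE 0.23, adjusted p = 0.00257; −0.15 in culture), and Acot2, an acyl-CoA thioesterase dim on 3 of 4 knockdown arrays, fell further in culture (−2.62 against −1.19). Of 20 genes of the TCA cycle and pyruvate dehydrogenase, 11 fell and 2 rose in mice (median −0.29; 5 to 7 fell with quantile scaling, median scaling or normexp) and 18 fell and 0 rose in culture (median −0.81). Suclg1, a succinate-CoA ligase subunit, fell in both (−1.31 and −1.08), whereas Pcx, pyruvate carboxylase, and Sdha, a subunit of succinate dehydrogenase, were opposite. Pcx had log2 0.77, SE 0.0908, adjusted p = 0.000318 in mice and log2 −0.94, SE 0.0739, adjusted p = 2.79e-05 in culture. Sdha had log2 0.79, SE 0.0997, adjusted p = 0.000448 and log2 −0.66, SE 0.0917, adjusted p = 0.000673.

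In each system more genes of the respiratory chain and the mitochondrial ribosome fell than rose, with few called differences. Shared falls were 11 of 29 and 10 of 22. Of 29 nuclear respiratory chain and ATP synthase genes, 19 fell and 2 rose in mice (median −0.47; 8 fell and 4 rose with quantile scaling) and 20 fell and 0 rose in culture (median −0.56), with 7 called differences (11 with quantile scaling). Cytochrome c, Cycs, changed by −0.89 and −0.98, and Ndufs1, a subunit of complex I, was opposite (0.32 and −0.66; in mice adjusted p = 0.0289). Of 22 mitochondrial ribosomal protein genes, 14 fell and 0 rose in each system (medians −0.37 and −0.52) and 1 difference was called, or 8 with median scaling. Mrpl15 changed by −0.91 and −0.93. Of 28 proteasome genes, 12 fell in mice and 9 fell and 2 rose in culture (medians −0.21 and −0.25), with 3 called differences. With normexp 6 proteasome genes fell in mice and 4 in culture, and with quantile scaling 8 and 5, beside the 25.8% and 16.5% of all genes that fell. Peroxisome genes fell in 15 of 24 cases and rose in 7 in mice, and fell in 16 and rose in 1 in culture. Pex16, a biogenesis factor, changed by −1.54 and −1.36, Pecr, an enoyl-CoA reductase, rose by 1.86 in mice with 0.25 in culture (adjusted p = 0.00582 with the replicate block), and Abcd2, a transporter of very long fatty acids detected on 1 of 4 mouse controls and 1 of 4 knockdown arrays, had 2.48 and −0.74.

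Glucose, glycogen and amino acid genes were mixed. Of 21 glucose uptake and glycolysis genes, 9 fell and 4 rose in mice (median −0.38, and 0.05 with quantile scaling; 4 fell and 2 rose with normexp) and 10 fell and 1 rose in culture (median −0.36). Hk2, a hexokinase, was opposite (log2 0.74, SE 0.22, adjusted p = 0.0234 and log2 −1.13, SE 0.084, adjusted p = 2.02e-05), Aldoc, an aldolase, rose in mice (1.64; culture 0.19, adjusted p = 0.0409 with the replicate block), and Pfkfb1, which sets the level of an activator of glycolysis, fell in both (−0.84 and −1.06). Of 13 glycogen genes, 5 rose and 4 fell in mice (median 0.44), and 3 rose and 9 fell in culture (median −0.57; 1 rose with normexp), and all 7 called differences were higher in mice. Gys2, a glycogen synthase, fell in both (−1.83 and −3.57), and Ppp1r3d, a glycogen-targeting phosphatase subunit, was opposite (0.74 and −1.75; difference log2 2.48, SE 0.20, adjusted p = 6.23e-07), while Ppp1r3b fell in culture (−1.35; mice 0.44). Of 20 branched-chain amino acid genes, 7 fell and 5 rose in mice and 8 fell and 0 rose in culture (medians −0.19 and −0.46; 4 fell and 2 rose in mice with normexp). Bckdhb, of the branched-chain dehydrogenase, changed by −1.82 and −1.19, Mccc1 rose in mice (1.83 and −0.13) and Aldh6a1 fell in culture (0.27 and −0.84).

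**Figure D5:**
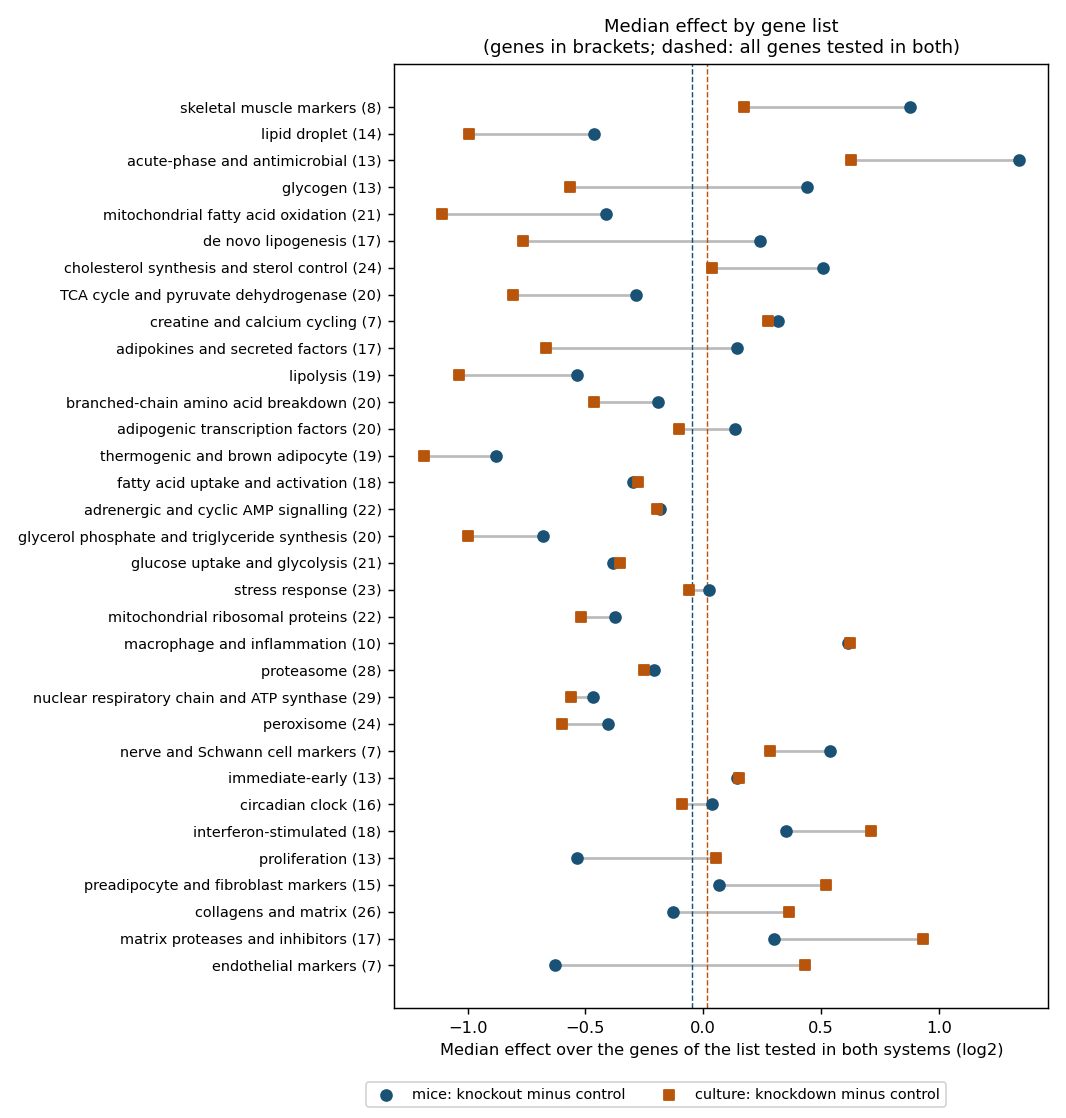
Median effect in arrays labelled knockout (circles) and in the knockdown (squares), each against its controls, over the members of 33 gene lists with at least 7 members tested in both systems, in log2 units, ordered by the median difference; the number of genes is in brackets and dashed lines are the medians of all genes. Lipogenesis lies at 0.24 in mice and −0.76 in culture, endothelial markers at −0.63 and 0.43, and mitochondrial ribosomal proteins at −0.37 and −0.52.

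Matrix and fibroblast genes rose in culture, with few rises called in mice. Of 17 matrix protease and inhibitor genes, 13 rose and 0 fell in culture (median 0.93), 4 rose and 2 fell in mice (median 0.30), and 10 of the 12 called differences were lower in mice. Of 26 collagen and matrix genes, 11 rose and 2 fell in culture (18 rises with quantile scaling, 17 with normexp and 7 with median scaling) and 2 rose and 4 fell in mice (medians 0.36 and −0.13). The 9 called differences were all lower in mice, against 6 lower and 2 higher with median scaling. Eln, elastin, read −4.39, −3.90, −3.75 and −4.06 in control cultures and −1.60, −1.46, −1.16 and −1.19 in the knockdown, and −3.52, −3.47, −2.94 and −2.88 in control mice and −3.80, −3.77, −3.75 and −4.01 in arrays labelled knockout. It rose in culture (log2 2.67, SE 0.16) and fell in mice (log2 −0.63, SE 0.16), a difference of log2 −3.30, SE 0.24, adjusted p = 2.44e-07 (log2 −1.33 with normexp, under which the mouse fall was not called, adjusted p = 0.57). Lox, the enzyme that cross-links collagen, rose in both (1.69 and 1.96), and Ccn2, a matricellular growth factor, fell in mice only (log2 −1.95, SE 0.18, adjusted p = 0.000101; 0.23 in culture). Of 15 preadipocyte and fibroblast markers, 9 rose in culture and 2 in mice, with 0 falls (medians 0.52 and 0.07). Pdgfra, the receptor that marks adipocyte precursors, was called in both (0.54 and 0.88; in mice adjusted p = 0.0316), Fap, a fibroblast protease, rose in culture (log2 2.41, SE 0.25, adjusted p = 0.00012; 0.16 in mice), and Twist2, a mesenchymal factor, rose further in mice (2.51 against 0.52). The summed preadipocyte and fibroblast markers were 6.19 to 6.59 and 6.23 to 6.51 in the mouse groups and 3.82 to 4.08 and 4.41 to 4.62 in culture. The part of cell makeup in these effects was not tested.

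Most endothelial markers fell in mice, and some rose in culture. Of 7 tested in both, 6 fell in mice and 4 rose in culture (medians −0.63 and 0.43), and 6 differences were called, all lower in mice. With normexp 4 fell in mice and 2 rose in culture (culture median 0.10), and 3 differences were called. Eng, a receptor of endothelial cells, read 2.40, 2.10, 2.35 and 2.60 in control mice and 1.38, 1.38, 1.27 and 1.69 in arrays labelled knockout and −4.18, −4.12, −4.12 and −4.24 in control cultures and −3.14, −3.1, −2.98 and −2.56 in the knockdown (−0.93 and 1.22; difference log2 −2.15, SE 0.19, adjusted p = 1.50e-06; with normexp the culture effect was not called, adjusted p = 0.673), and Flt1, a receptor of vascular endothelial growth factor, had −0.53 and 1.21 (difference adjusted p = 0.281 with normexp). As given above, summed endothelial markers were higher on every mouse array than on any culture array, and their part in these effects was not tested. Of the 2 red blood cell genes tested in both, Hba-a1 and Hba-a2, near-identical globin genes that share signal, changed by −1.06 and −0.94 in mice, where 0 of the 2 were called with quantile scaling (Hba-a2, adjusted p = 0.214). Nerve and Schwann cell markers rose in 6 of 7 cases in mice (2 with normexp) and in 3 in culture, where 1 fell. Ngfr, the low-affinity neurotrophin receptor, rose in both (0.99 and 1.15), and Mbp, the myelin protein, was opposite (1.19 and −0.67), with other probes disagreeing in culture at −0.54 and 0.61. Skeletal muscle genes were tested in both in 8 cases. Tnnc2, a troponin, read 3.59, −1.51, −1.51 and −1.46 in arrays labelled knockout and −3.67, −2.28, −3.23 and −2.92 in control mice, and without knockout array 1 its mouse effect was 1.53 (adjusted p = 0.0061) in place of 2.80 (adjusted p = 0.0699). Tnnc2 fell in culture, so that it was classed as changed in culture only, but as opposite without that array. Acta1, skeletal actin, went from 1.21 to −0.15 without that array, so that its value rested on it.

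Of 13 acute-phase and antimicrobial genes, 9 rose in mice and 7 in culture, with 0 falls (medians 1.34 and 0.63). Shared rises were 5, while 4 rose in mice only and 2 in culture only. The difference was called for 8 of the 13, against 31.7% of all genes, 6 higher and 2 lower in mice. Serpina3n, an acute-phase protease inhibitor, rose in both (log2 3.82, SE 0.58 and log2 2.29, SE 0.13), with 1 of 4 mouse controls well above background, and Serpina3c rose in mice (2.72; culture −0.27, adjusted p = 0.00568 with the replicate block, which makes it opposite). Interferon-stimulated genes rose in 15 of 18 cases in culture and in 1 in mice, with 0 falls (medians 0.71 and 0.35; 6 culture rises with normexp). Their mouse median was 0.91 on mouse slide 1 and −0.18 on mouse slide 2. The difference was called for 0 of them by limma at an adjusted p of 0.05 and for 1 at an unadjusted p under 0.05, so that a rise in culture only was not shown. Stat2, which carries the interferon signal, was called in both (log2 0.88, SE 0.27, adjusted p = 0.0334 and log2 0.72, SE 0.0802, adjusted p = 0.000204), and Cxcl10, an interferon-induced chemokine, had a wide error in mice (log2 2.36, SE 1.22 against log2 1.02, SE 0.16). Cxcl10 read 1.58 on knockout array 4, which lies on mouse slide 1, and −3.38 to −2.08 on the other knockout arrays. Usp18 also stood apart on knockout array 4. The part of that array in the list median was not tested. Of 10 macrophage and inflammation genes, 2 rose in mice and 5 rose and 1 fell in culture (medians 0.61 and 0.62; 3 culture rises with normexp). Cd14, a receptor for endotoxin, rose in both (1.91 and 1.18), the chemokine Ccl8 rose in culture (1.42; mice 0.12), and Trem2, a lipid receptor of macrophages, fell at least 2.19-fold in culture, with 0.51 in mice. Summed macrophage markers were 4.50 to 5.04 and 4.85 to 5.04 in the mouse groups and 1.12 to 1.56 and 1.60 to 2.21 in culture. Of 2 lymphocyte markers tested in both, Cd4 fell in mice (−0.43) and Cd3e rose in culture (0.48).

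Clock genes changed in mice and were seldom called in culture. Of 16 circadian genes, 6 rose and 6 fell in mice, 1 rose and 2 fell in culture, and the difference was called for 12, against 31.7% of all genes, 10 of them as changed in mice only. The output factor Dbp read 4.49, 3.52, 4.0 and 3.67 in control mice and 2.07, 1.80, 1.59 and 2.39 in arrays labelled knockout, without overlap, and 4.08, 4.14, 4.36 and 4.51 in control cultures and 4.24, 4.10, 4.37 and 4.48 in the knockdown, which overlapped. Its effects were log2 −1.96, SE 0.24 and log2 0.02, SE 0.12, with a difference of log2 −1.98, SE 0.28, adjusted p = 0.000108. Nr1d2, a repressor of the clock, changed by −2.04 in mice with −0.22 in culture (adjusted p = 0.026 with the replicate block, which makes it shared). Arntl, which drives the clock's positive limb, rose by 1.17 with −0.21 (adjusted p = 0.0361 with the block, which makes it opposite), and Bhlhe40, a clock repressor, by 1.64 (adjusted p = 0.0365 for the difference). The mouse groups of Bhlhe40 overlapped, and its difference lost the call in 12 of 29 alternatives (adjusted p up to 0.0737).

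Signalling and the other lists gave smaller or mixed effects. Of 22 adrenergic and cyclic AMP genes, 8 fell and 3 rose in mice and 9 fell and 5 rose in culture (medians −0.18 and −0.20). With normexp 4 fell in mice and 8 fell and 0 rose in culture, and with median scaling 5 rose in mice and 3 in culture. Prkar2b, a regulatory subunit of protein kinase A, fell in both (−1.37 and −1.22). Of 20 adipogenic transcription factors, 4 rose and 4 fell in mice and 1 rose and 6 fell in culture (medians 0.14 and −0.10; 2 falls in mice with quantile or median scaling). Nr1h3, a sterol-activated nuclear receptor, fell in both (−0.74 and −1.28). Of 17 adipokines and secreted factors, 5 fell and 4 rose in mice (2 with normexp) and 10 fell and 1 rose in culture, and 9 of the 10 called differences were higher in mice. Lgals12, a galectin of adipocytes, fell in both (−1.95 and −1.96; difference adjusted p = 0.974), and Nnat, neuronatin, fell in culture only (log2 −2.95, SE 0.0986, adjusted p = 4.20e-07; 0.16 in mice). Of 7 creatine and calcium cycling genes, 2 rose and 3 fell in mice and 3 rose in culture (0 with median scaling and 1 with normexp). The creatine transporter Slc6a8 rose in both (1.24 and 0.53), the creatine kinase Ckmt1 was opposite (−0.80 and 0.46), and the phosphatase Alpl fell in mice (−2.50), with 2 of 4 arrays of each culture group well above background.

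Stress response genes were called in 4 rises and 3 falls of 23 in mice and in 4 rises (2 with median scaling) and 8 falls in culture. Vldlr, the very low density lipoprotein receptor, fell in both (−1.33 and −1.72). Trib3 and Chac1, targets of the stress factor ATF4, had uncalled mouse effects (log2 1.01, SE 0.64, adjusted p = 0.227 and log2 2.16, SE 0.84, adjusted p = 0.0684). Without mouse control 3 the differences of Trib3 and Chac1 were 2.09 and 3.01 (adjusted p = 0.00288 and 0.000246). Of 13 immediate-early genes, 2 rose and 2 fell in mice and 2 rose and 3 fell in culture. Arc fell in both (−1.30 and −1.07), Nr4a2 was opposite (0.97 and −0.63), and Fosl2 rose further in mice (2.34 against 0.99), a difference that was not called as the mean of its probes (adjusted p = 0.0739). Another Fosl2 probe went the other way, with 0.55 in mice and 0.86 in culture. Of 13 proliferation genes, 1 rose and 1 fell in mice and 1 fell in culture. Tyms, which makes thymidylate, fell in mice (log2 −0.83, SE 0.19, adjusted p = 0.00864; 0.21 in culture, adjusted p = 0.0121 with the replicate block, which makes it opposite).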

How the data were processed

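Total RNA was extracted with TRIzol, and 200 ng was amplified and labelled with Cy3, 1 array per sample, per the labels' protocols. The deposited files hold spot intensity as processed by Agilent Feature Extraction 10.7.3.1, per the submitters' processing notes. The deposited intensity of 16 arrays was turned into log2 values minus each array's 75th percentile, after 1377 control spots and 111 to 247 outlier spots per array were left out. Of 39429 probes, 27234 were named by RefSeq accession (69.1%), giving 20659 genes, and the brightest probe stood for each of the 5476 genes with several. A gene was tested in a system if its probe was well above background on at least 4 of 8 arrays. Effects were fitted with limma 3.58.1 in R 4.3.3 on the 8 arrays of each system and their difference on all 16, and p-values were adjusted by Benjamini-Hochberg across every tested gene, with 0.05 as the limit. The scripts were tested on simulated data with known effects, drawn with independent arrays and no difference between slides. In culture the deviations of treated and control arrays correlated at 0.736 to 0.798 for the same replicate number. They did so at 0.728 to 0.761 for another number of the same slide and at −0.817 to −0.709 between slides. The culture arrays thus go together by slide, and a pairing by number beyond the slide was not shown. Replicate numbers do not pair the mouse arrays (−0.185 to 0.017).

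Genes were named by rule: Pparg, Gk and Ucp1; those with the largest effects or differences in each class, among genes detected on at least 3 arrays of every group without overlap; the largest bounds; the largest effects tested in a single system; and, in each list, the members with the largest differences and the largest shared effect. Adipoq, Fabp4, Cidea, Isca1, Cox8b, Ppara, Cd4, Cd3e and some other list members and markers were added after values were seen. 1 gene that the rule names is not reported here. Members and lists were chosen with earlier results of these data known. Alternatives were quantile and median scaling, normexp on the deposited median intensity (offset 50), probe filters, blocks by slide or replicate, and arrays left out.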

Additional observations from a re-analysis of the deposited data

Results flagged for a closer look

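The effect in arrays labelled knockout differed from that of the knockdown in culture, by limma's test of the difference over 16 arrays, for 93 of the named genes checked. The values below are log2 differences, mouse effect minus culture effect, and no explanation was weighed. For genes with opposite effects, the higher mouse effect was that of Pparg (3.99), Anxa8 (5.63), Mmd (2.75), Trarg1 (3.64), Prdm16 (1.87), Dgat2 (1.62), Sdha (1.45), Ndufs1 (0.98), Pcx (1.71), Abcd2 (3.21), Hk2 (1.88) and Ppp1r3d (2.48). Others of that class and direction were Mbp (1.86) and Nr4a2 (1.59). For genes with opposite effects, the lower mouse effect was that of Kng1 (−2.93), Kng2 (−2.68), Wnt11 (−3.04), Timp4 (−2.61), Ckmt1 (−1.26), Eln (−3.30), Flt1 (−1.74), Eng (−2.15) and Hba-a2 (−1.63). For shared genes, the higher mouse effect was that of Ucp1 (1.82), Tmem45b (1.17), Cbs (1.93), Cyp2f2 (3.19), Plin5 (1.55), Adora1 (0.65), Acot2 (1.43), Gys2 (1.74), Slc6a8 (0.70), Twist2 (1.99), Cd14 (0.73) and Fosl2 (1.35). Another Fosl2 probe rose further in culture than in mice. For shared genes, the lower mouse effect was that of Clstn3 (−0.89), Otop1 (−0.86), Sgk2 (−3.36), Cntfr (−3.41), Lmo2 (−2.12), Zfp521 (−1.96), Mmp11 (−2.20), Fabp3 (−0.81), Agpat2 (−0.78) and Bckdhb (−0.63). For genes changed in mice alone, the higher mouse effect was that of Dusp14 (3.31), Hmga2-ps1 (3.04), Neurl1a (3.21), Mb (6.19), Ucp3 (2.72), Hilpda (1.45), Acsl4 (2.20), Mogat2 (4.58), Cpt1a (1.46), Pecr (1.61), Mccc1 (1.95) and Aldoc (1.45). Others of that class and direction were Idi1 (1.48), Serpina3c (2.99), Arntl (1.38) and Bhlhe40 (1.67). For genes changed in mice alone, the lower mouse effect was that of Cpne5 (−4.94), Spdef (−3.39), Cacna1a (−3.06), Ntrk3 (−3.47), Ppargc1a (−2.12), Nr1d2 (−1.83), Dbp (−1.98) and Tyms (−1.03). For genes changed in culture alone, the higher mouse effect was that of Clec10a (3.95), Ffar2 (4.19), Ly6h (3.58), Adcy5 (3.90), Angptl8 (3.24), Lpin1 (2.27), Mgll (1.92), Acly (1.72), Srebf1 (1.77), Fasn (1.66), Aldh6a1 (1.10) and Insig1 (1.31). Others of that class and direction were Nnat (3.12) and Tnnc2 (3.56). Without knockout array 1 the mouse rise of Tnnc2 was called too, which makes it opposite. For genes changed in culture alone, the lower mouse effect was that of Fbln7 (−3.09), Mlana (−3.35), Bmp4 (−3.31), Camp (−3.97) and Fap (−2.25). For 5 others a whole group was not well above background, so that the effect there is only a bound and the fitted difference is no measured size: Cyp4f14 (3.1; at least 39.0-fold in mice and at least 4.98-fold in culture), Saa3 (5.56; at least 20.6-fold in mice), B4galnt2 (−2.94; at least 18.7-fold in mice), Dio2 (2.16; at least 3.52-fold in culture) and Trem2 (1.84; at least 2.19-fold in culture). With the replicate block, which also takes out the difference between the culture slides, the culture effect was called too for some genes given as changed in mice alone. That makes Mb, Saa3, Mogat2, Pecr, Aldoc and Nr1d2 shared and Hmga2-ps1, Neurl1a, Ucp3, Serpina3c, Arntl and Tyms opposite.

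In 511 groups of 4 arrays checked, 26 held an array far from the other 3 by Dixon's test, and chance flags about 1 in 20 groups. On mouse knockout array 1 this was the log2 level of Cpne5 (−0.97), Dio2 (3.71) and Tnnc2 (3.59). On culture control array 1 this was the log2 level of Ntrk3 (0.82) and Fbp1 (−7.77). On mouse control array 3 this was the log2 level of Mlana (−5.95) and Trib3 (3.56). On mouse control array 1 this was the log2 level of Bmp4 (−1.21). On mouse knockout array 4 this was the log2 level of Camp (−2.93), Pecr (4.04), Usp18 (1.40) and Psmb8 (1.84). On knockdown array 1 this was the log2 level of Clec10a (−4.47). On mouse control array 2 this was the log2 level of Cyp4f14 (−4.53), Adamtsl2 (−4.80), Ccdc13 (−5.14), Tex19.1 (−6.59) and Serpina3n (−3.95). On mouse knockout array 3 this was the log2 level of Sult1e1 (2.43). On knockdown array 2 this was the log2 level of Sult1e1 (−7.45) and Chac1 (1.21). On mouse knockout array 2 this was the log2 level of Amn (−6.37) and Mlycd (5.25). On culture control array 3 this was the log2 level of Slc25a20 (2.21) and Acta1 (0.21). On knockdown array 4 this was the log2 level of Twist2 (2.59).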

How the results depend on the processing

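Among the named genes checked, no called difference changed sign under the alternatives run. Of their called effects within a system, that of Hba-a2 in culture did, with normexp (log2 −0.07, adjusted p = 0.877). Of the values of single genes under the alternatives, 3281 kept their side of the threshold, 29 passed it anew and 81 lost it. The 3281 include uncalled differences that changed sign, such as that of Pck1 (log2 −0.41 to 0.25). Of the list medians, 961 stayed within the spread and 54 moved. With normexp the counts were 2139 differences, 2899 calls in mice, 937 shared, 153 opposite and 853 in mice only. With a slide block they were 7596 in culture, 2721 shared, 875 opposite and 1711 in culture only. With the replicate block they were 7407 in culture, 674 opposite and 1779 in culture only, and no other total changed by over 1.5 times. Similar totals can hold other genes. With the replicate block 1484 shared, 341 opposite, 959 mice-only and 930 culture-only genes kept their class. With the slide block these were 1641, 411, 1008 and 957, and with median scaling 1200, 267, 1042 and 648. In mice, where the numbers do not pair the arrays, the block also moved the mouse calls of Acly, Clec10a, Insig1, Lpin1, Trib3 and Chac1 past the threshold (adjusted p = 0.0396, 0.0175, 0.0213, 0.0473, 0.0167 and 0.0375) and that of Ndufs1 below it (0.0819). At an adjusted p under 0.01 there were 2278 differences, 3772 calls in mice, 2828 in culture, 911 shared, 134 opposite and 1011 in mice only. At 2-fold or more there were 1279 differences, 1311 in mice, 992 in culture, 233 shared, 21 opposite, 481 in mice only and 354 in culture only. With the arrays of a slide averaged, an alternative chosen after seeing the data that leaves 2 values per group, there were 1229 differences, 3663 in mice, 996 in culture, 333 shared, 42 opposite, 662 in mice only and 297 in culture only. Without the filter on dim probes the correlation of effects was 0.239. The Gk difference passed with quantile scaling (0.68) and median scaling (0.87). Leaving out each array in turn gave 3401 to 3902 differences, 5036 to 5903 calls in mice, 3690 to 4375 in culture, 1441 to 1618 shared, 323 to 442 opposite, 1394 to 1707 in mice only, 842 to 1092 in culture only, a correlation of 0.336 to 0.376, and differences of 3.92 to 4.05 for Pparg, 0.466 to 0.742 for Gk and 1.72 to 1.96 for Ucp1. Stricter limits and fewer arrays call fewer genes by construction, and for the other settings the cause was not tested. Signal near background limits dim genes, and 4 arrays per group limit precision.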
